A study of Homo sapiens with 32 samples.

Results

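The 43 genes described here encode the enzymes of DNA replication and the regulators that take a cell from G1 into S phase. They were chosen by symbol from a list of replication and G1/S genes, and all 43 were found among the 25066 features of the deposited expression table. The RNA came from TMD8 and DOHH2, 2 human lines of diffuse large B-cell lymphoma, the first of the activated and the second of the germinal centre B cell type. Both lines carried an engineered Cas9 in the vehicle arm and in the treated arm alike, and were grown in RPMI medium with serum. Cells received 500 nM CSKi, an inhibitor of the kinase CSK that keeps Src family kinases inactive, or the vehicle DMSO, for 1, 3, 6 or 24 h. There were 16 groups of 2 libraries, 32 in all. The labels call the duplicates biological replicates but do not say whether they were separate cultures, so the p-values measure only the spread between these libraries, which may be technical.

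In late G1, cyclin E with its kinase inactivates the retinoblastoma family of proteins, and the E2F factors released from them switch on most genes of this group. CDC6 and CDT1 load the ring of MCM proteins onto origins, and CDC45 and the GINS complex turn that ring into the active helicase. The polymerases then copy both strands with the PCNA clamp, the clamp loader RFC, the single-strand binding protein RPA and a supply of deoxynucleotides, a programme that dividing lymphoma cells keep expressed.

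Values are the authors' log2 values of scaled read counts, so that a difference of 1 is a 2-fold change, and differences are given with their standard error (SE). A gene was called where limma's Benjamini-Hochberg adjusted p was under 0.05 over the 12000 features with the highest mean, which held all 43 members. Libraries held 12273442 to 24907030 mapped reads, and members had from 99 reads (POLE2) to 33283 reads (MCM7) in a library. B cell markers were expressed in both lines, with CD79A at a mean of 14.05 in TMD8 and 12.92 in DOHH2 and PAX5 at 13.37 and 12.63. Markers of other cells were not all at 0: those of T and NK cells had at most 65 reads in a library (NKG7, mean of 5.93 in DOHH2, with CD2 at 0 reads in every library), myeloid markers 176 (LYZ, mean of 7.55 in DOHH2), and fibroblast and epithelial markers 640 (COL1A1, mean of 8.95 in TMD8). Over all tested features, the log2 difference between duplicates had a standard deviation (SD) of 0.21 to 0.27 in 14 groups. It was 0.37 and 0.40 in the DMSO and CSKi groups of DOHH2 at 24 h, where the second library labelled CSKi differed less from the first one labelled DMSO (SD 0.28) than from its own duplicate. Over the 43 members the corresponding SDs were 0.095 within DMSO, 0.19 within CSKi and 0.071 across those labels. DOHH2 values at 24 h are therefore given only as labelled and enter no other main comparison. Alternatives with these libraries in the fit took them as labelled, so that their wider spread entered the estimate of spread shared by all groups.

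After 24 h of CSKi, the replication genes of TMD8 were lower as a group. Of the 43 members, 40 fell and 0 rose, where 26.2% of all 12000 features fell, 27.9% rose and 54.0% were called either way. For CSKi against DMSO, fell and rose mean lower and higher than in DMSO at the same time, not a change over time. The median log2 difference of the members was -0.48, against 0.015 over all features tested, and single members ranged from -0.80 to 0.057. In RNA of bulk cultures, fewer cells in S phase and less RNA per cell cannot be told apart. The members took 0.608 and 0.611% of mapped reads in the DMSO libraries at 24 h, and 0.437 and 0.442% in the CSKi libraries.

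**Figure D1:**
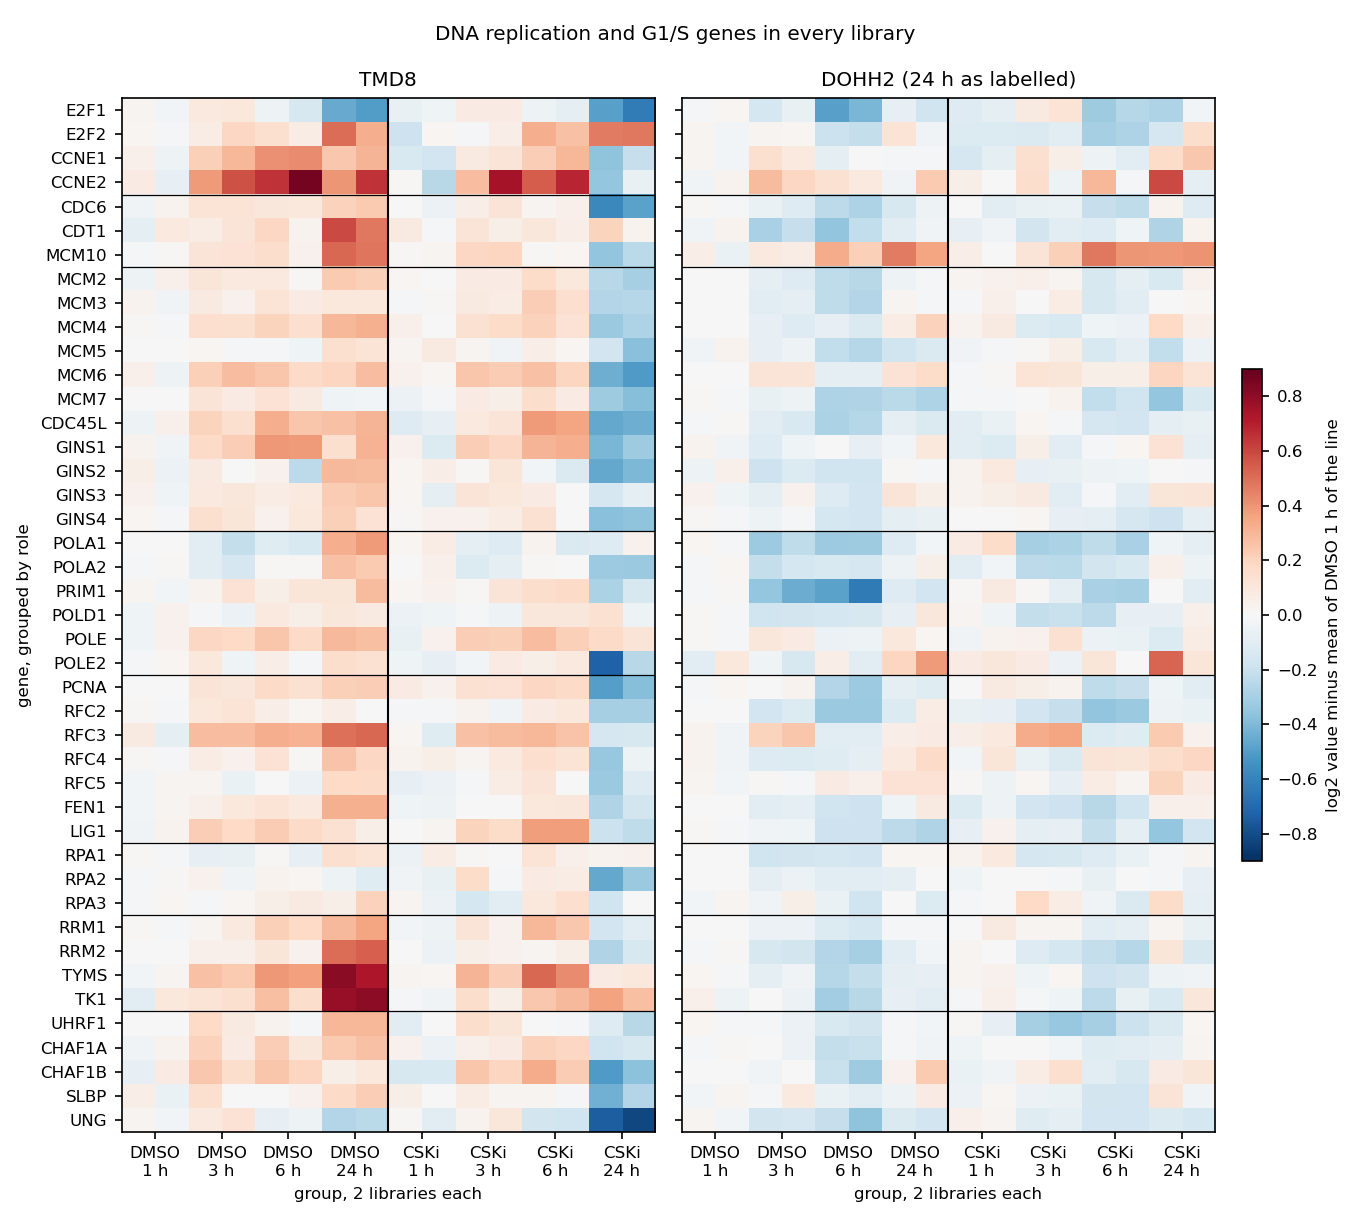
Log2 value of each of the 43 genes in each of the 32 libraries, minus the mean of the line's DMSO libraries at 1 h, with genes (vertical axis) grouped by role and libraries (horizontal axis) by treatment and time. In TMD8 the DMSO libraries at 24 h are mostly red (higher) and the CSKi libraries at 24 h mostly blue (lower), and in DOHH2 the libraries of both arms at 6 h are mostly blue.

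All 3 genes of helicase loading and activation fell at 24 h. CDC6, the loading ATPase, stood at 11.38 and 11.41 in the DMSO libraries and at 10.59 and 10.69 in the CSKi libraries, a log2 difference of -0.75 ± 0.048 (1.68-fold lower, adjusted p = 2.09e-12). MCM10, which activates the loaded helicase, stood at 11.24 and 11.21 in DMSO and at 10.37 and 10.48 in CSKi, a difference of -0.80 ± 0.054 (1.74-fold lower, adjusted p = 4.40e-12), the largest fall among the 43. CDT1, the partner of CDC6 in loading, stood at 11.01 and 10.90 in DMSO and at 10.62 and 10.45 in CSKi, a difference of -0.42 ± 0.070 (adjusted p = 1.73e-05). For each of these genes both treated libraries lay below both vehicle libraries.

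All 11 subunits of the replicative helicase fell as well, with a median of -0.54. Among the MCM ring subunits, MCM6 (-0.71 ± 0.046) and MCM4 (-0.62 ± 0.036) fell most, followed by MCM2, MCM5 (-0.41 ± 0.044), MCM3 (-0.36 ± 0.035) and MCM7 (-0.32 ± 0.037). MCM2 stood at 12.89 and 12.87 in DMSO and at 12.41 and 12.36 in CSKi, a difference of -0.50 ± 0.040 (adjusted p = 1.25e-10). CDC45L, the older symbol of CDC45, stood at 11.31 and 11.35 in DMSO and at 10.59 and 10.61 in CSKi, a difference of -0.73 ± 0.050 (adjusted p = 5.18e-12). Of the GINS complex, GINS2 was at 9.93 and 9.92 in DMSO and at 9.18 and 9.23 in CSKi (-0.72 ± 0.082, adjusted p = 5.62e-08), and GINS1, GINS4 and GINS3 fell by 0.60, 0.54 and 0.36 on the log2 scale. The treated and vehicle libraries of MCM2, CDC45L and GINS2 did not overlap.

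Of the 6 polymerase genes, 5 fell. POLE2, the second subunit of polymerase epsilon, fell by 0.64 ± 0.12, and POLA2, the accessory subunit of polymerase alpha, fell by 0.58 ± 0.047. PRIM1, the primase (-0.41 ± 0.079), and POLA1, the catalytic subunit of polymerase alpha (-0.39 ± 0.065), fell less, and POLE, the leading-strand polymerase, fell by 0.14 ± 0.044 (adjusted p = 0.0102). POLD1, the catalytic subunit of polymerase delta, is named because it missed the threshold. It stood at 13.31 and 13.29 in DMSO and at 13.35 and 13.17 in CSKi, with a difference of -0.043 and a 95% interval of -0.13 to 0.047.

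The 7 genes of the clamp, its loader and the joining of lagging-strand fragments all fell, with a median of -0.41. PCNA, the sliding clamp, stood at 13.26 and 13.27 in DMSO and at 12.55 and 12.67 in CSKi, a difference of -0.66 ± 0.037 (1.57-fold lower, adjusted p = 1.78e-13). The loader subunits RFC3 (-0.66 ± 0.058), RFC4 (-0.41 ± 0.068), RFC5 (-0.41 ± 0.069) and RFC2 (-0.33 ± 0.052) fell, as did the flap nuclease FEN1 (-0.54 ± 0.041) and the ligase LIG1 (-0.31 ± 0.042). All 3 subunits of RPA fell: RPA2 fell by 0.32 ± 0.061, RPA3 by 0.22 ± 0.076 and RPA1 by 0.098 ± 0.041 (adjusted p = 0.049). The calls of POLE, RPA3 and RPA1 did not survive every alternative: adjusted p reached 0.0621 for POLE without the second CSKi or the first DMSO library at 24 h, or with only the groups compared, 0.216 for RPA3 without the first CSKi or the second DMSO library and with only those groups, and 0.168 for RPA1, whose call was lost without any 1 of the 4 libraries.

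The 4 genes of deoxynucleotide supply were all lower in CSKi than in DMSO at 24 h. RRM2, the regulated subunit of ribonucleotide reductase, stood at 12.40 and 12.44 in DMSO and at 11.63 and 11.76 in CSKi, a difference of -0.73 ± 0.044 (1.65-fold lower, adjusted p = 8.33e-13). TYMS, thymidylate synthase, fell by 0.69 ± 0.042, TK1, thymidine kinase, by 0.48 ± 0.060, and RRM1, the large subunit of the reductase, by 0.46 ± 0.044. The 5 genes of chromatin assembly, histone messenger processing and uracil repair fell too. SLBP, which binds histone messengers, fell by 0.54 ± 0.062, the uracil glycosylase UNG by 0.53 ± 0.051, the chromatin assembly subunits CHAF1B and CHAF1A by 0.51 ± 0.069 and 0.41 ± 0.059, and UHRF1, which recognises newly copied methylated DNA, by 0.48 ± 0.053.

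The G1/S regulators divided by kind. Both E-type cyclins fell: CCNE1 stood at 10.49 and 10.55 in DMSO and at 9.89 and 10.04 in CSKi (-0.56 ± 0.063, 1.47-fold lower, adjusted p = 4.36e-08). CCNE2 stood at 8.66 and 8.91 in DMSO and at 7.91 and 8.19 in CSKi (-0.73 ± 0.14, adjusted p = 8.14e-05). The treated libraries of both cyclins lay below the vehicle libraries. Neither E2F gene was called: E2F1 stood at 11.34 and 11.29 in DMSO and at 11.31 and 11.17 in CSKi (-0.081, 95% interval -0.18 to 0.019), and E2F2 at 10.32 and 10.15 in DMSO and at 10.29 and 10.30 in CSKi (0.057, interval -0.096 to 0.21). The vehicle and treated libraries of both E2F genes overlapped, so that E2F1, E2F2 and POLD1 were the 3 members not called at 24 h.

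Many of the members have a feature of promoter sequence in common. Sequence was not used to choose them, but E2F factors switch on most genes of this group. The share of members with an E2F site is therefore not independent of the choice. RefSeq promoter windows of build GRCh38.p14, from 250 bases before to 50 after the start of a gene, were at hand for 37 members. The letters TTTNNCGC, a form of the site bound by E2F factors, occurred on either strand in 21 of these 37 windows (56.8%), in 32.7% of the windows of 52 other replication and G1/S genes, in 6.25% of those of 16 G2/M genes and in 6.90% of all 27305 windows. A window with several matches, overlapping ones included, was counted once. CCAAT, the core of the NF-Y site, was present in 54.1% of member windows and 35.7% of all windows, and TTTGAA, a form of the element found in late cell cycle genes, in 2.70% of member windows, 62.5% of G2/M windows and 15.4% of all windows. These are matches of letters, not measured binding. The lines below give 225 bases of 6 promoters, from 200 bases before the start, 5′ to 3′ on the strand of the gene, with matches to TTTNNCGC on either strand in capitals. E2F1 and RFC3 are shown as 2 of the members named most often in the comparisons, and CCNE1 as another of these that held no match (PRIM1 and MCM10, named as often, held none either). MCM6, MCM3 and CDC6 were chosen after the matches were seen, for their matches and their fall at 24 h.
E2F1: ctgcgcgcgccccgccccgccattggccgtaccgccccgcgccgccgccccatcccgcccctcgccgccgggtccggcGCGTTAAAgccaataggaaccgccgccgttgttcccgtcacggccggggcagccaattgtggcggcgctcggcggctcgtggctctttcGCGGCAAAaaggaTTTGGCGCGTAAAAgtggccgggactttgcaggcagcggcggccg
RFC3: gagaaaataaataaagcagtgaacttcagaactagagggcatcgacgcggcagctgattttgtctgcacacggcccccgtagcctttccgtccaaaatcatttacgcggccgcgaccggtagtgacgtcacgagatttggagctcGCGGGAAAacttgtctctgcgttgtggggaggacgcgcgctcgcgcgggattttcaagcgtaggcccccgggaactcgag
MCM6: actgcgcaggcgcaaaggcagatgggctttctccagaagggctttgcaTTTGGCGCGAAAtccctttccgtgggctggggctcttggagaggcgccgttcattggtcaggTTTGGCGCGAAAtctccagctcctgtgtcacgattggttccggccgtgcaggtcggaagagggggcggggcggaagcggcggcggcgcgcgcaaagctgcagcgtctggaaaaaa
MCM3: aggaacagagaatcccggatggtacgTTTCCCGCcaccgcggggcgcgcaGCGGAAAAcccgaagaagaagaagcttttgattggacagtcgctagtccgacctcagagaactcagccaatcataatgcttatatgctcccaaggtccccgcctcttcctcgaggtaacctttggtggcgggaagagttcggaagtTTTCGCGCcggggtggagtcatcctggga
CDC6: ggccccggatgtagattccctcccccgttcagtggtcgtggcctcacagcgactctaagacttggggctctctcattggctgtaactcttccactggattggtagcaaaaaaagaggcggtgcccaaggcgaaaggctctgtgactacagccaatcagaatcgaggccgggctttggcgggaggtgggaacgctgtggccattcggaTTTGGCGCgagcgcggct
CCNE1: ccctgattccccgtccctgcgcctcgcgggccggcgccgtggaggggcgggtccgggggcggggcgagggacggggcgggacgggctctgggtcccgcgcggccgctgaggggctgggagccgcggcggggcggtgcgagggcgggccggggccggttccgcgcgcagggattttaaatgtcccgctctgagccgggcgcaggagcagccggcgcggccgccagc
E2F1 lies at chr20:33686361-33686585 (minus strand), RFC3 at chr13:33817949-33818173 (plus), MCM6 at chr2:135876419-135876643 (minus), MCM3 at chr6:52284718-52284942 (minus), CDC6 at chr17:40287679-40287903 (plus) and CCNE1 at chr19:29811791-29812015 (plus). E2F1 held 4 matches and was not called lower at 24 h, MCM6 held 4 and fell by 0.71, CDC6 held 1 and fell by 0.75, and CCNE1 held 0 and fell by 0.56. Among the 6 members with the largest falls, MCM10, CDC45L and RRM2 held 0 matches, CDC6 and GINS2 held 1 each, and CCNE2 had no window. Whether the matches go with the size of the fall was not tested.

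No such fall was detected before 24 h. At 1 h, 0 of the 43 members were called in TMD8 by limma (0.05% of all features, each of them lower), with 2 at an unadjusted p under 0.05 and 0 called by limma-voom on reads recovered from the values. The members with the smallest p were CCNE1 (-0.16 ± 0.063, adjusted p = 0.991), CHAF1B (-0.14 ± 0.069, adjusted p = 0.997) and CDC45L (-0.095 ± 0.050, adjusted p = 0.997). The lowest bound of any member's 95% interval at 1 h was -0.41. At 3 h, again 0 were called (1.48% of all features higher, 3.26% lower, 4.73% called), 2 had an unadjusted p under 0.05 and voom called 0, with CCNE1 (-0.16 ± 0.063, adjusted p = 0.188), RFC2 (-0.11 ± 0.052) and RPA1 (0.081 ± 0.041) at the smallest p.

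At 6 h, LIG1 alone was called, and it was higher (5.67% of all features were higher, 6.98% lower and 12.7% called). It stood at 12.18 and 12.12 in DMSO and at 12.33 and 12.32 in CSKi, both treated libraries above both vehicle libraries (0.18 ± 0.042, adjusted p = 0.00526). The call was lost without the first CSKi library or the second DMSO library of 6 h, with an adjusted p of up to 0.101. MCM10 stood at 10.88 and 10.76 in DMSO and at 10.73 and 10.74 in CSKi, CDC6 at 11.27 and 11.26 against 11.20 and 11.21, and RRM2 at 12.01 and 11.95 against 11.93 and 11.96, and none of these 3 was called. CCNE1 had the lowest difference of the 43 (-0.16), at 10.66 and 10.67 in DMSO and 10.47 and 10.55 in CSKi, and was not called either. Its treated libraries lay below its vehicle libraries at 6 h, as they did at 1 and 3 h. By limma, 7 members had an unadjusted p under 0.05 at 6 h. The median of the members was 0.032 at 6 h, beside 0.015 over all features.

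**Figure D2:**
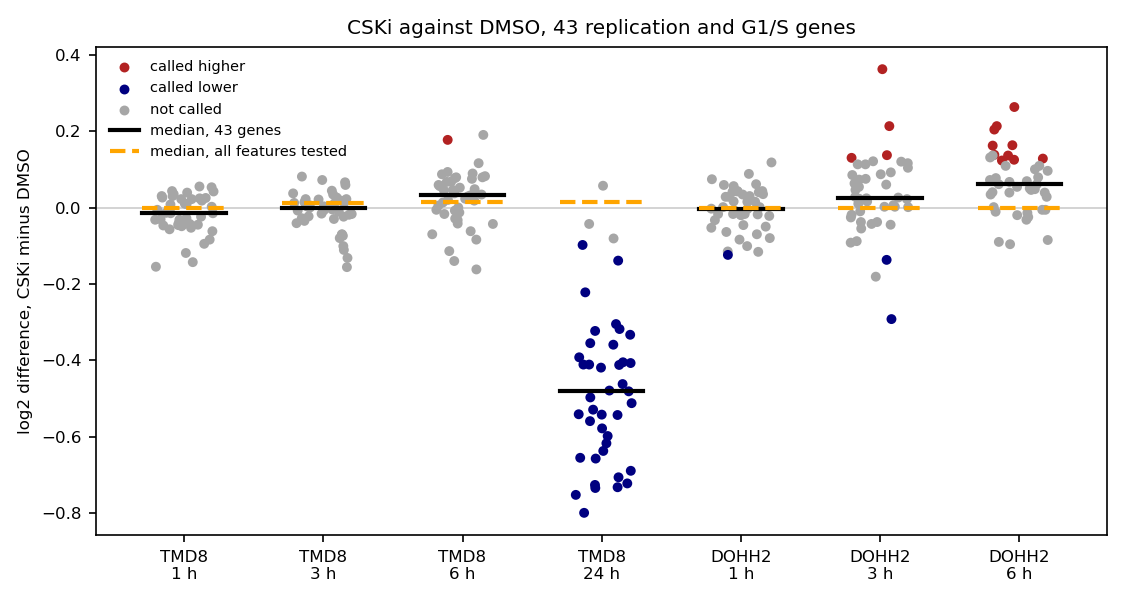
Log2 difference of CSKi from DMSO (vertical axis) for the 43 genes, 1 point a gene, by line and time (horizontal axis), with black bars at the median of the 43 and dashed bars at the median of all 12000 features. In TMD8 at 24 h, 40 points are called lower around a median of -0.48, while the medians at 1, 3 and 6 h in both lines lie between -0.015 and 0.061.

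The change of the response between 6 and 24 h was tested directly in TMD8. The response was lower at 24 h than at 6 h for 39 members and higher for 0, where 14.1% of all features were lower, 15.4% higher and 29.6% called, and the median of the members was -0.50. CDC45L changed most (-0.81 ± 0.070, adjusted p = 3.71e-09), from 11.37 and 11.29 in DMSO and 11.43 and 11.40 in CSKi at 6 h to the values at 24 h given above. TYMS (-0.78 ± 0.059), GINS2 (-0.74 ± 0.12), MCM6 (-0.72 ± 0.065), MCM10 (-0.71 ± 0.076) and RRM2 (-0.69 ± 0.063) followed. CDC6 (-0.69 ± 0.068), PCNA (-0.68 ± 0.052), MCM2 (-0.58 ± 0.056), CCNE1 (-0.40 ± 0.089) and CDT1 (-0.39 ± 0.099) changed by a smaller amount. RPA3, POLD1, E2F1 and E2F2 were the 4 members not called. Of those called, POLE lost its call under 9 alternatives, quantile normalization among them, and RPA1 under 2. CCNE2 (-0.59 ± 0.20, adjusted p = 0.0239) lost its call under 6 alternatives, with an adjusted p of up to 0.129.

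Between 6 and 24 h, members of TMD8 changed in both arms. These comparisons were added after the values had been seen. In DMSO, 21 members were higher at 24 h than at 6 h and 4 lower (20.6% and 20.9% of all features, 41.6% called), with a median of 0.13. In CSKi, 36 members were lower and 0 higher (25.4% and 23.4% of all features, 48.9% called), with a median of -0.38. CCNE2 changed most in CSKi, from 8.81 and 8.95 to 7.91 and 8.19 (-0.82 ± 0.14), and both of its 24 h libraries lay below both 6 h libraries. CDC45L (-0.81 ± 0.050), CHAF1B (-0.72 ± 0.069), MCM6 (-0.70 ± 0.046), GINS1 (-0.68 ± 0.067) and PCNA (-0.62 ± 0.037) followed, and none of these 6 was called in DMSO. TK1 rose most in DMSO, from 10.90 and 10.79 to 11.42 and 11.44 (0.58 ± 0.060), without overlap, and was not called in CSKi (0.051 ± 0.060). POLA1 and CDT1 likewise rose in DMSO, by 0.48 ± 0.065 and 0.42 ± 0.070, and were not called in CSKi (0.010 ± 0.065 and 0.034 ± 0.070). RRM2 (0.45 ± 0.044), MCM10 (0.40 ± 0.054) and TYMS (0.39 ± 0.042) rose in DMSO and fell in CSKi, by 0.25, 0.31 and 0.39. All 4 members that fell in DMSO also fell in CSKi: E2F1 by 0.38 ± 0.049 in DMSO and 0.49 ± 0.049 in CSKi, UNG by 0.20 ± 0.051 and 0.61 ± 0.051, MCM7 by 0.14 ± 0.037 and 0.47 ± 0.037, and LIG1 by 0.11 ± 0.042 and 0.59 ± 0.042. In DMSO the call of MCM7 was lost without the first library of 6 h (adjusted p = 0.0619), and that of LIG1 under 5 alternatives, among them leaving out either 6 h library or the second of 24 h (adjusted p up to 0.366). Scaled to total mapped reads, the DMSO counts were 17 higher and 6 lower, a split less to the higher side by over 10 percentage points, and the total was 16 without the second DMSO library of 6 h.

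**Figure D3:**
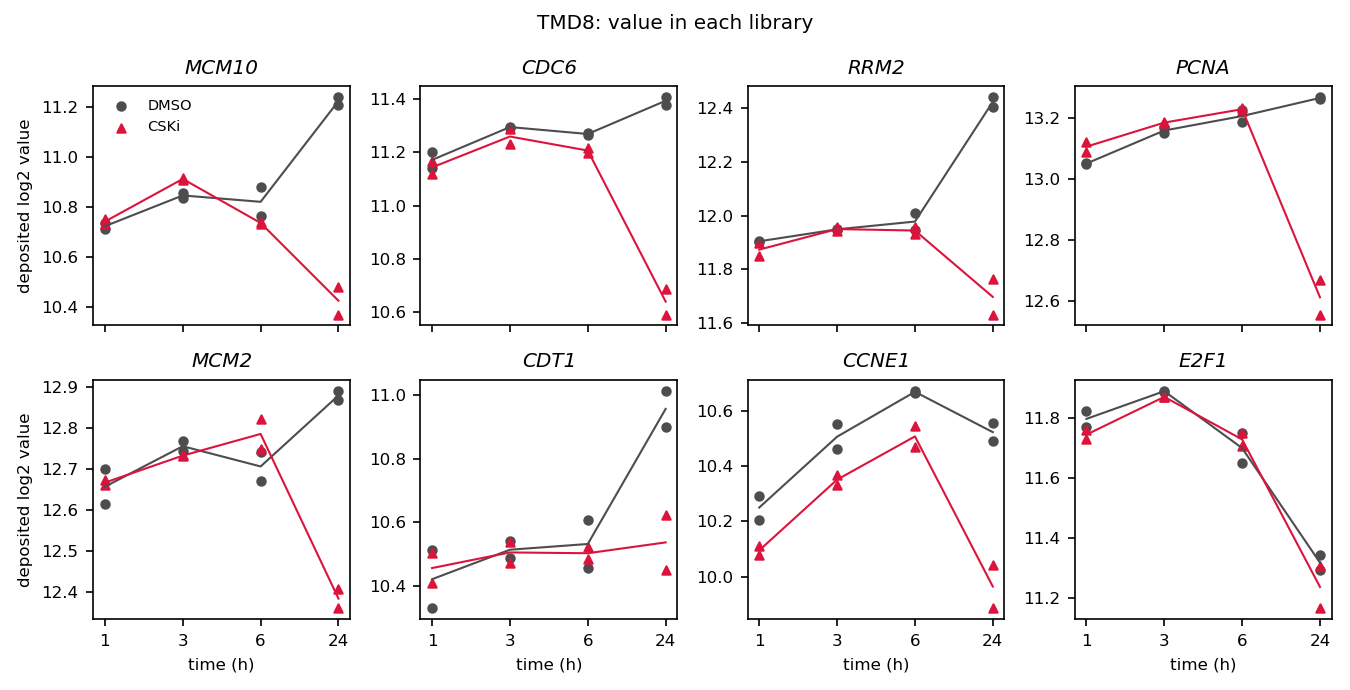
Deposited log2 value (vertical axis) of 8 genes in each TMD8 library at 1, 3, 6 and 24 h (horizontal axis, evenly spaced), with circles for DMSO, triangles for CSKi and lines through the means of 2 libraries. MCM10, CDC6, RRM2, PCNA, MCM2 and CCNE1 fall in CSKi at 24 h, CDT1 rises in DMSO, and E2F1 falls in both arms.

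The vehicle cells of TMD8 were followed from 1 h, using the same DMSO libraries at 3, 6 and 24 h that served as controls above. At 3 h, 12 members were higher than at 1 h and 0 lower (9.68% of all features each way, 19.4% called), led by CCNE2 (0.48 ± 0.14), RFC3 (0.28 ± 0.058), CCNE1 (0.26 ± 0.063), TYMS (0.25 ± 0.042), MCM6 (0.25 ± 0.046) and LIG1 (0.20 ± 0.042). The calls of both cyclins at 3 h were lost without the second library of 1 h or of 3 h (adjusted p up to 0.180 for CCNE2 and 0.0915 for CCNE1), and that of RFC3 without the second library of 1 h (0.0616). At 6 h, 17 were higher and 0 lower (11.2% and 12.4% of all features, 23.5% called). CCNE2 went from 8.34 and 8.18 to 8.91 and 9.12 (0.76 ± 0.14, adjusted p = 0.000259), and CCNE1 from 10.29 and 10.21 to 10.66 and 10.67 (0.42 ± 0.063), and both cyclins were higher in each 6 h library than in either 1 h library. GINS1 (0.39 ± 0.067), TYMS (0.38 ± 0.042), RFC3 (0.32 ± 0.058) and CDC45L (0.29 ± 0.050) rose as well. The count at 3 h was 7 to 8 when any 1 of the 4 libraries was left out.

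At 24 h in DMSO, 33 members were higher than at 1 h and 2 lower (22.8% and 23.9% of all features, 46.7% called), with a median of 0.23 against -0.010 over all features. TK1 went from 10.54 and 10.72 to 11.42 and 11.44 (0.80 ± 0.060, 1.74-fold, adjusted p = 9.08e-11), and TYMS from 12.20 and 12.26 to 13.04 and 12.96 (0.77 ± 0.042, adjusted p = 2.14e-13). Both 24 h libraries were higher than both 1 h libraries for these enzymes of thymidine nucleotide supply. CDT1 (0.54 ± 0.070), CCNE2 (0.53 ± 0.14), RRM2 (0.52 ± 0.044) and RFC3 (0.51 ± 0.058) followed. Fewer members were called when any 1 of the 4 libraries was left out, and CCNE2 lost its call without the second library of 24 h. E2F2 rose by 0.42 ± 0.074, whereas E2F1 fell by 0.48 ± 0.049, from 11.82 and 11.77 to 11.34 and 11.29. UNG was the other member that fell (-0.26 ± 0.051), from 11.24 and 11.20 to 10.95 and 10.97.

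**Figure D4:**
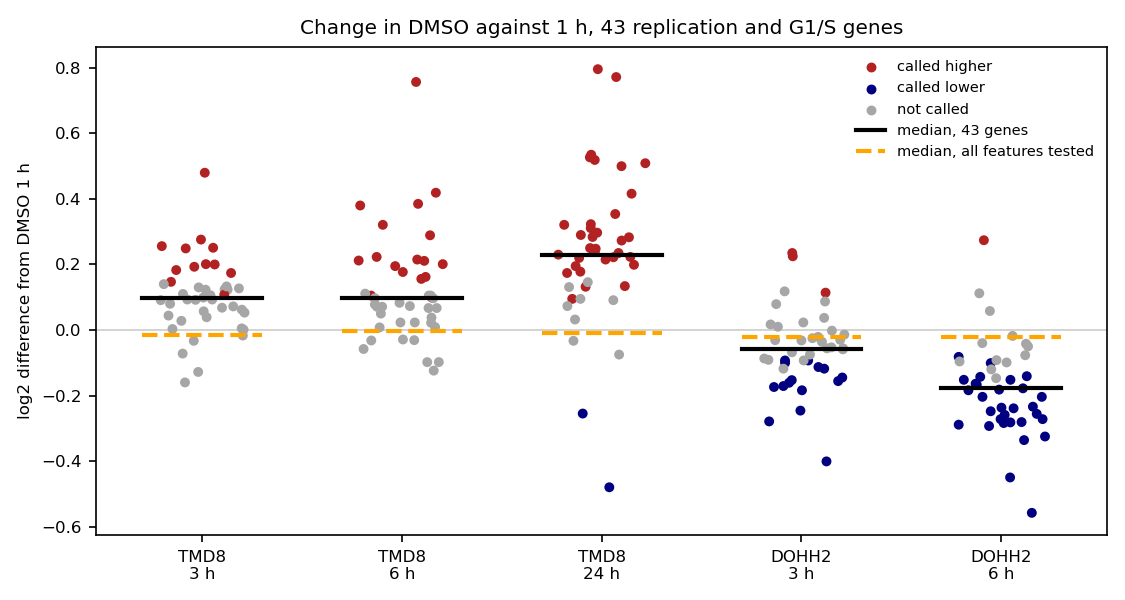
Log2 difference from DMSO at 1 h (vertical axis) of the 43 genes in DMSO, 1 point a gene, by line and time (horizontal axis), with black bars at the median of the 43 and dashed bars at the median of all features tested. The median of the members lies at 0.099, 0.097 and 0.23 in TMD8 at 3, 6 and 24 h and at -0.059 and -0.18 in DOHH2 at 3 and 6 h.

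In DOHH2 the members moved the other way in vehicle cells. At 3 h in DMSO, 15 members were lower than at 1 h and 3 higher (17.3% and 16.5% of all features, 33.8% called). The 3 that rose were CCNE2 (0.24 ± 0.080), RFC3 (0.23 ± 0.042) and MCM6 (0.11 ± 0.033), and those that fell most were PRIM1 (-0.40), POLA1 (-0.28), CDT1 (-0.25), POLA2 (-0.18), RPA1 (-0.17) and POLD1 (-0.17). At 6 h, 30 were lower and 1 higher (23.4% and 20.3% of all features, 43.7% called), with a median of -0.18 against -0.020 over all features. PRIM1 went from 9.82 and 9.84 to 9.35 and 9.19 (-0.56 ± 0.071, adjusted p = 9.99e-07), and E2F1 from 12.21 and 12.25 to 11.74 and 11.82 (-0.45 ± 0.042, adjusted p = 7.70e-09). Each 6 h library was below both 1 h libraries for these genes. RFC2 (-0.34), POLA1 (-0.33), PCNA (-0.29) and CDT1 (-0.29) fell too. MCM10 was the member that rose, from 11.17 and 11.06 to 11.45 and 11.33 (0.27 ± 0.052). The count of calls at 3 h was 9 to 13 when 1 library was left out, and 5 with the 24 h libraries in the fit.

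The vehicle change from 1 to 6 h was then compared between the lines, a comparison also added after the values had been seen. It was higher in TMD8 than in DOHH2 for 31 members and lower for 0 (10.0% and 8.30% of all features, 18.3% called), with a median of 0.29. CCNE2 (0.65 ± 0.20, adjusted p = 0.0246), PRIM1 (0.64 ± 0.10), TYMS (0.61 ± 0.053), CDC45L (0.56 ± 0.056), TK1 (0.50 ± 0.084) and CHAF1B (0.48 ± 0.085) differed most. The call of CCNE2 was lost under 8 alternatives, among them no filter on low values and no trend in the variance model. TYMS, for example, went from 12.20 and 12.26 to 12.62 and 12.60 in TMD8, and from 12.60 and 12.57 to 12.33 and 12.37 in DOHH2. MCM10 and RFC5 were the members with a negative difference (-0.18 and -0.089), and neither was called.

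In DOHH2 the log2 differences of members between CSKi and DMSO ranged from -0.29 to 0.36 over 1, 3 and 6 h. Their medians were -0.003, 0.024 and 0.061 at these times. At 1 h, E2F2 was the 1 member called, and was lower (0.825% of all features higher, 1.23% lower, 2.05% called), at 13.22 and 13.16 in DMSO and 13.06 and 13.06 in CSKi (-0.12 ± 0.033), and the call was lost under 7 alternatives, among them leaving out any 1 of the 4 libraries (adjusted p up to 0.991). At 3 h, 4 members were higher and 2 lower (7.28% and 7.27% of all features, 14.5% called). These were 9.3% and 4.65% of members. Like the 2.33% of members lower at 1 h, they were near the shares over all features. PRIM1 stood at 9.47 and 9.38 in DMSO and at 9.84 and 9.74 in CSKi (0.36 ± 0.071, adjusted p = 0.000709), and E2F1 at 12.07 and 12.16 against 12.31 and 12.35 (0.21 ± 0.042). Both treated values were above both vehicle values, and MCM2 (0.14 ± 0.032) and MCM3 (0.13 ± 0.031) also rose. UHRF1 fell from 12.86 and 12.82 in DMSO to 12.57 and 12.53 in CSKi (-0.29 ± 0.040, adjusted p = 6.30e-06), and E2F2 from 13.21 and 13.21 to 13.06 and 13.09 (-0.14 ± 0.033). E2F2 was no longer called without the first CSKi or the first DMSO library of 3 h, MCM3 without the second CSKi or the first DMSO library, and MCM2 without the second DMSO library, with adjusted p up to 0.432, 0.139 and 0.223 over all alternatives. The 6 calls became 3 without the trend in the variance model and 2 with the 24 h libraries in the fit.

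At 6 h, 10 members were higher in CSKi and 0 lower in DOHH2, with a median of 0.061. These were 23.3% and 0% of members, beside 6.96% and 6.67% of all features (13.6% called). PRIM1 stood at 9.35 and 9.19 in DMSO and at 9.53 and 9.53 in CSKi (0.26 ± 0.071, adjusted p = 0.0123), CDT1 at 11.67 and 11.81 against 11.92 and 11.99 (0.21 ± 0.048), and RFC4 rose by 0.20 ± 0.049. The treated libraries of PRIM1 and CDT1 lay above their vehicle libraries. These DMSO libraries are the ones in which both genes were lower than at 1 h. MCM10 (0.16 ± 0.052), E2F1 (0.16 ± 0.042), GINS2 (0.14 ± 0.045), MCM6 (0.14 ± 0.033), MCM5 (0.13 ± 0.035), MCM3 (0.13 ± 0.031) and MCM2 (0.12 ± 0.032) made up the 10. The count fell to 4 without the second DMSO library, to 5 without the second CSKi library, to 2 without the trend in the variance model and to 0 with the 24 h libraries in the fit.

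At 24 h in DOHH2, as labelled, 0 members and 0% of all features were called by limma, with 1 member at an unadjusted p under 0.05, 0 called by voom, and 2 called when the library labelled CSKi replicate 2 was left out. That member was CCNE1, at 10.12 and 10.12 in the libraries labelled DMSO and 10.30 and 10.38 in those labelled CSKi (0.22 ± 0.064, adjusted p = 1.00). POLE (-0.086 ± 0.059) and PRIM1 (0.095 ± 0.075) came next. CCNE2 stood at 10.02 and 10.28 in libraries labelled DMSO and at 10.64 and 9.97 in those labelled CSKi, a wider spread within than between the labels. Because the labels of these libraries are in doubt, the fall at 24 h in TMD8 could not be compared between the lines.

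The response to CSKi was compared between the lines at 1, 3 and 6 h. At 1 h, 0 members differed by limma (0.333% of all features higher, 0.117% lower, 0.45% called), 0 had an unadjusted p under 0.05 and voom called 0, and RFC3 (-0.12 ± 0.065), POLA2 (0.085 ± 0.052) and RRM1 (-0.078 ± 0.052) came closest. At 3 h, 3 members differed (2.18% of all features higher in TMD8, 2.64% lower, 4.83% called): the response of PRIM1 (-0.38 ± 0.10, adjusted p = 0.0331) and E2F1 (-0.23 ± 0.064, adjusted p = 0.0387) was lower in TMD8 and that of UHRF1 higher (0.29 ± 0.066, adjusted p = 0.00958). At 6 h, 3 differed (2.52% of all features higher, 3.46% lower, 5.97% called): MCM10 (-0.25 ± 0.074, adjusted p = 0.0472), UNG (-0.22 ± 0.065, adjusted p = 0.0427) and E2F2 (0.27 ± 0.081, adjusted p = 0.0452). At 3 h and at 6 h, 2.33% of members were higher and 4.65% lower, near the shares over all features. Both counts were 0 with the DOHH2 24 h libraries in the fit. The count at 3 h was also 0 without the first CSKi or the second DMSO library of TMD8, and that at 6 h without either CSKi library or the first DMSO library of TMD8, or without the first CSKi or the second DMSO library of DOHH2.

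In vehicle cells the lines differed in the level of nearly all members. Over the DMSO libraries at 1, 3 and 6 h, 38 members were lower in TMD8 than in DOHH2 and 4 higher (45.6% and 43.8% of all features, 89.4% called), with a median of -0.61 against -0.017 over all features. E2F2 ranged from 9.80 to 10.01 in the 6 TMD8 libraries, with a middle of 9.89, and from 12.97 to 13.22 in the 6 DOHH2 libraries, with a middle of 13.19 (-3.23 ± 0.033, 9.39-fold lower). RRM2 ranged from 11.90 to 12.01 in TMD8 and from 13.74 to 14.05 in DOHH2 (-1.96 ± 0.021), and MCM7 from 13.23 to 13.36 and from 15.01 to 15.30 (-1.88 ± 0.017). The lines did not overlap for these 3 genes. UHRF1 (-1.75), CHAF1A (-1.68) and GINS2 (-1.66) followed. POLD1 (0.61 ± 0.027), MCM5 (0.56 ± 0.025), CCNE1 (0.32 ± 0.034) and GINS3 (0.19 ± 0.035) were higher in TMD8, and PRIM1 (-0.016 ± 0.042) was the 1 member not called.

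**Figure D5:**
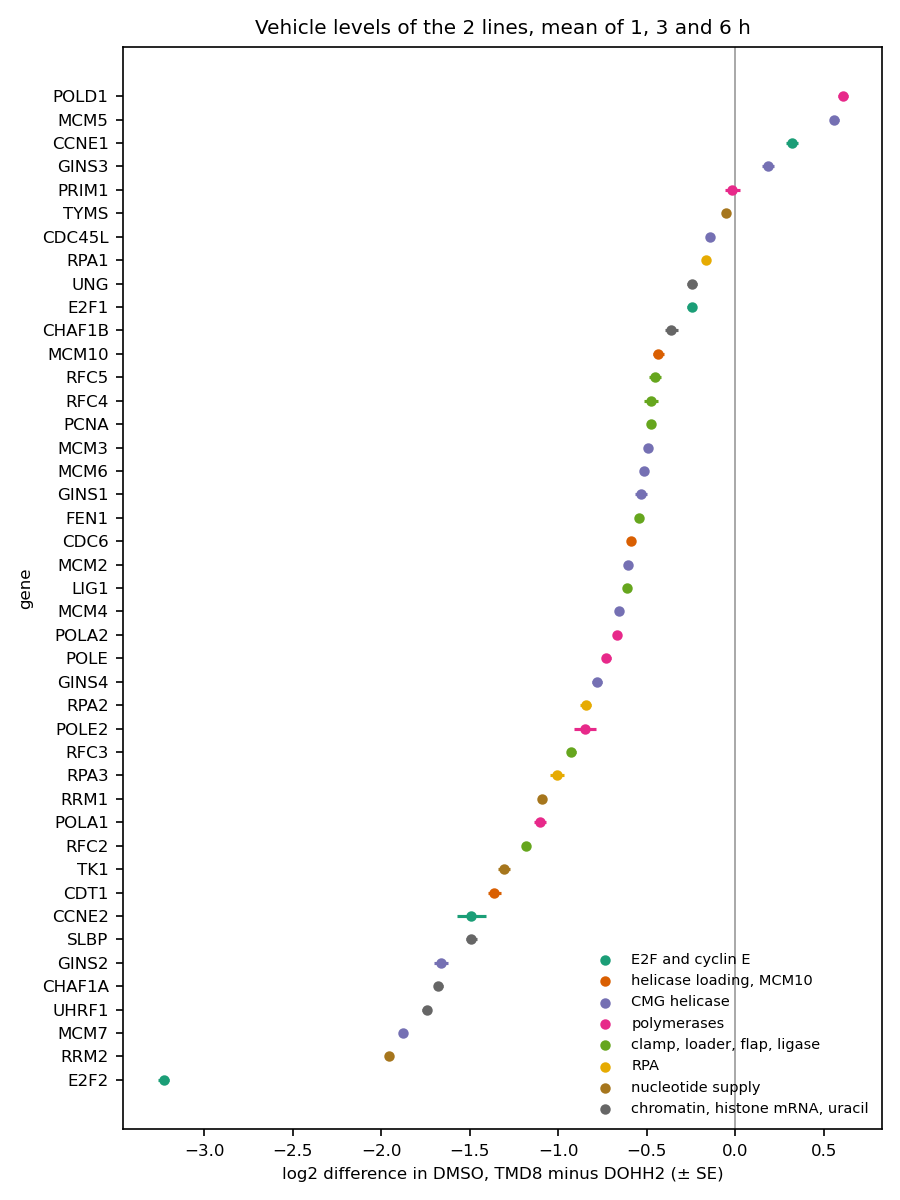
Log2 difference between the lines in DMSO, TMD8 minus DOHH2, mean of 1, 3 and 6 h (horizontal axis, point and SE), for the 43 genes in order of the difference (vertical axis), coloured by role. E2F2 stands apart at -3.23, and POLD1, MCM5, CCNE1 and GINS3 are the 4 genes called higher in TMD8.

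Within 1 complex the lines differed to unlike degrees. Of the MCM ring, MCM7 was 3.68-fold lower in TMD8, MCM2, MCM3, MCM4 and MCM6 were lower by 0.61, 0.49, 0.66 and 0.51 on the log2 scale, and MCM5 was higher. Of the GINS complex, GINS2 was lower by 1.66 and GINS3 higher by 0.19. The cyclins E1 and E2 also differed in opposite directions, with CCNE2 at -1.49 ± 0.080 and CCNE1 at 0.32 ± 0.034.

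Other genes of the pathway were counted in a list of 63 replication and G1/S genes outside the 43. In TMD8 at 24 h of CSKi, 49 of these fell and 5 rose, with a median of -0.39 (26.2% and 27.9% of all features). CCND3, a D-type cyclin, fell by 1.01 ± 0.061, TFDP1, the dimer partner of the E2F factors, by 0.52 ± 0.036, the exonuclease EXO1 by 0.75 ± 0.053 and the mismatch repair gene MSH6 by 0.64 ± 0.047. POLD4, the small subunit of polymerase delta (0.79 ± 0.055), the retinoblastoma relative RBL2 (0.33 ± 0.045) and the kinase inhibitors CDKN1A (0.22 ± 0.052) and CDKN1B (0.19 ± 0.072) were among those that rose. Of 20 genes of G2 and mitosis, 20 fell at 24 h, with a median of -0.36, beside 26.2% of all features. At 3 and 6 h, 4 and 8 of them were higher and 0 lower, where 1.48% and 5.67% of all features were higher. In TMD8 DMSO from 1 to 24 h, 45 of the 63 and 20 of the 20 were higher (22.8% of all features). In DOHH2 DMSO from 1 to 6 h, 14 of the other replication genes were higher and 20 lower, with a median of -0.002. Of the 20 G2/M genes, 7 were higher and 1 lower there, with a median of 0.008 (20.3% and 23.4% of all features).

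Some members share their position with another gene, and no source used here says whether strand was used in counting. In GENCODE v29, CCNE2, MCM7, PRIM1, RFC4 and TYMS overlap a gene on the opposite strand, and FEN1 overlaps FADS2 on the same strand. Of these partners, AP4M1, which overlaps MCM7, fell in TMD8 at 24 h by 0.23 (adjusted p = 0.0277), while ENOSF1 (-0.095), EIF4A2 (-0.060) and INTS8 (-0.12), which overlap TYMS, RFC4 and CCNE2, were not called, and HSD17B6 and FADS2 were not among the features tested. How far reads of 1 gene were counted for the other was not tested.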

How the data were processed

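RNA-seq of 32 libraries was used as deposited. Per the labels, TruSeq stranded mRNA libraries were read as 2x75 cycles. The submitters' processing notes name hg19 and HTSeq, while version, strand setting and aligner are not given in the sources available here. Each deposited value is the log2 of a read count multiplied by the factor of its library, and a feature with no reads has 0. This was read from the values themselves: among values of at most 300 reads, 99.8 to 100% of those in a library were whole to within 0.1 reads once divided by what 1 read is worth there. How the authors set the factor is not given. The table's row of library totals entered no test, and every value column belonged to a sample.

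The log2 values were fitted with limma 3.58.1 in R 4.3.3 to group means, with a trend in eBayes and two-sided tests. P-values were adjusted by the Benjamini-Hochberg method over 12000 features, those of highest mean. TMD8 was fitted on its 16 libraries (8 residual degrees of freedom), DOHH2 at 1, 3 and 6 h on 12 libraries (6), and comparisons of the lines on 28 (14). The lowest mean tested was 20.6, 15.7 and 16.2 reads in these fits. DOHH2 at 24 h was fitted on the 16 libraries of that line. No count test served as the main one, since the table does not give counts, and limma-voom was run on the recovered reads instead. The labels name no batch.

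The members, the lists and the comparisons were chosen with earlier results of these data known, and the 3 comparisons named as added, their settings and the pairings of the DOHH2 24 h libraries after the values had been seen. Values are given for up to 6 called members each way with the largest change, or the 3 with the smallest p where none was called, and for E2F1, CCNE1, CCNE2, CDC6, CDT1, PCNA, MCM2 and RRM2 in the main comparison. Of the 63 other replication and G1/S genes, up to 4 each way with the smallest p are named, for CSKi in TMD8 at 24 h only. Genes of that list were also called in other comparisons, as were genes of G2 and mitosis, and these are not named. POLD1 and E2F2 in TMD8 at 24 h, the other members given by role, RFC5, E2F2 in DMSO and the members not called are named outside that rule, after their values were seen. Promoters are from the RefSeq table (GRCh38.p14) by gene ID, and overlaps from GENCODE v29, while no coordinate of the expression data was used. Alternatives were a replicate block, other filters, scalings and variance models, other sets of libraries, and leaving out each library. The steps were tested on simulated data. Python 3.11.15, pandas 2.3.3 and matplotlib 3.10.9 made tables and figures.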

Additional observations from a re-analysis of the deposited data

Results flagged for a closer look

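The response to CSKi differed between 6 and 24 h in TMD8 by the test of that difference, for 39 members (14.1% of all features were lower, 15.4% higher and 29.6% called). CDC45L (-0.81), TYMS (-0.78), GINS2 (-0.74), MCM6 (-0.72), MCM10 (-0.71) and RRM2 (-0.69) differed most on the log2 scale, all lower at 24 h.

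The response differed between the lines for 3 members at 3 h (4.83% of all features called), lower in TMD8 for PRIM1 (-0.38) and E2F1 (-0.23) and higher for UHRF1 (0.29). It differed for 3 members at 6 h (5.97% of all features called), lower in TMD8 for MCM10 (-0.25) and UNG (-0.22) and higher for E2F2 (0.27). At both times 2.33% of members were higher and 4.65% lower. Those shares were near the ones over all features, 2.18% and 2.64% at 3 h and 2.52% and 3.46% at 6 h. Each count was 0 with the DOHH2 24 h libraries in the fit, and 0 to 2 when 1 library was left out.

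The change of vehicle cells from 1 to 6 h differed between the lines for 31 members, each higher in TMD8 (10.0% of all features were higher, 8.30% lower and 18.3% called). CCNE2 (0.65), PRIM1 (0.64), TYMS (0.61), CDC45L (0.56), TK1 (0.50) and CHAF1B (0.48) led, though CCNE2 lost its call under 8 alternatives. The cause of these differences was not tested.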

How the results depend on the processing

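Of 281 alternative counts of called members over 21 comparisons, 235 stayed within 1.5 times the main count. Of 4831 alternatives for 350 called member results, 4405 kept the direction and the call, 425 lost the call and 1 reversed: MCM4 in DOHH2 DMSO at 6 h against 1 h was 0.009 after quantile normalization. For CSKi in TMD8 at 24 h the count lay between 37 and 41 over settings and between 38 and 40 with 1 library left out. Under other scalings, the median of all features was at most 0.074 in absolute size. That value was for TMD8 CSKi at 24 h against 6 h, scaled to total mapped reads.

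For TMD8 at 6 h the main count of 1 was 2 after quantile normalization, 3 by voom, 4 with only the groups compared, and 0 to 1 leaving 1 library out. For DOHH2 at 1 h the count of 1 was 0 with no filter, 0 without the variance trend, 0 with the 24 h libraries and 0 leaving any 1 library out. For DOHH2 at 3 h the count of 6 was 3 without the trend and 2 with the 24 h libraries. For DOHH2 at 6 h the count of 10 was 6 with no filter, 2 without the trend, 0 with the 24 h libraries and 4 to 9 leaving 1 library out. For DOHH2 at 24 h as labelled the count of 0 was 0 to 2 leaving 1 library out, the 2 without the library labelled CSKi replicate 2. For TMD8 DMSO at 3 h the count of 12 was 7 to 8 leaving 1 library out. For DOHH2 DMSO at 3 h the count of 18 was 11 without the trend, 5 with the 24 h libraries and 9 to 13 leaving 1 library out. For the difference of the lines at 3 h the count of 3 was 1 scaled to total mapped reads, 0 with the 24 h libraries and 0 to 2 leaving 1 library out. For that at 6 h the count of 3 was 1 with the replicate block, 0 with no filter, 1 after quantile normalization, 0 without the trend, 0 with the 24 h libraries and 0 to 2 leaving 1 library out. For TMD8 DMSO at 24 h against 6 h the count of 25 was 16 to 20 leaving 1 library out, the 16 without the second library of 6 h. Smaller sets of libraries leave fewer degrees of freedom, and the cause of the other moves was not tested. Fits with the DOHH2 24 h libraries took their labels as given, though these are in doubt.

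The replicate numbers are not said to mark a shared culture or day. Deviations of same-numbered libraries correlated with r of 0.028 to 0.071 in TMD8 and of -0.02 to 0.056 in DOHH2 at 1, 3 and 6 h, and -0.377 at 24 h. Apart from the 1 member above, the replicate block moved no count by more than 1.5 times, and gave 39 for TMD8 at 24 h. Crossed pairs of the DOHH2 24 h libraries gave 0 calls, as did numbered pairs. Where 1 library was left out of a group, the other was assumed to vary like the remaining groups. Duplicates limit the precision, and depth limits it most for POLE2 and CCNE2, with as few as 99 and 121 reads.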
